A study of Mus musculus with 354 samples.

Results

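The genes examined here were 8 genes of cochlear gap junctions and potassium recycling, namely the connexin genes *Gjb2*, *Gjb6* and *Gja1*, the potassium channel gene *Kcnj10*, the cotransporter genes *Slc12a2* and *Slc12a7*, the sodium pump subunit gene *Atp1b2* and the anion exchanger gene *Slc26a4*. They were taken by symbol from the 55367 genes counted in each cell, and all 8 were present. The counts came from 354 single GFP+ cells sorted from mouse cochleae at P3 (postnatal day 3), with 177 cells from CA-ERBB2 pups and 177 from their Control littermates. Both genotypes carried the Fgfr3-iCre driver together with the ROSA-floxed-rtTA/GFP allele. CA-ERBB2 pups had in addition the transgene TetON-CAERBB2, which encodes a constitutively active form of the receptor ERBB2. All pups received tamoxifen at P0/P1 (75 mg/kg), to start the recombinase, and doxycycline at P2 (100 mg/kg), which switches the transgene on where it is present. Each genotype was represented by 3 plates of 59 cells, the plate was the replicate, and each plate pooled the cells of several pups. Recombination driven by *Fgfr3* is not restricted to a single supporting cell type, so the sorted cells were a mixture.

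In the cochlea, hair cells are depolarised by potassium that enters from the endolymph and leaves them at their base. Supporting cells take this potassium up and are joined to each other and to the cells of the lateral wall by gap junctions, of which the connexins 26 and 30, encoded by *Gjb2* and *Gjb6*, are the main components. Loss of *GJB2* is a leading cause of inherited deafness in humans, and genes for channels, cotransporters and pumps along this route are also deafness genes.

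Total counts per cell ranged from 1443 to 5178221 (median 2866362), and the sums per plate lay between 108357282 and 188636940. The plates numbered 1 stood apart, with a median of 10198 genes detected per cell on CA-ERBB2 plate 1 and 8679 on Control plate 1 against 1742 to 2954 on the other 4 plates. The 24 cells of wells A12 to D12 also stood apart in both genotypes, with medians of 15673 (CA-ERBB2) and 15538 (Control) genes against 3269 and 3233 in the remaining cells. Totals under 100000 counts were found in 35 cells, 33 of them Control. For comparisons that depend on depth, each of the other 319 cells was thinned, that is, reduced at random to 100000 counts. The cells were labelled cochlear supporting cells. The 6 general supporting cell markers were detected in 72 (*Prox1*) to 183 (*Sox9*) of the 354 cells each, and the 6 mesenchyme and fibrocyte markers in 94 (*Otos*) to 250 (*Col1a2*). The 4 macrophage markers were detected in 22 to 115 cells, with 3 of them at 22, and the 5 melanocyte markers in 3 to 94 cells. *Erbb2* itself was at 106, 46.0 and 120 CPM on CA-ERBB2 plates 1, 2 and 3, above the 19.8, 3.24 and 12.4 CPM on Control plates 1, 2 and 3 (CPM, a plate's summed counts brought to a common total with the TMM factors of edgeR).

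*Gjb2* and *Gjb6* are neighbours on chromosome 14, both on the minus strand of GRCm38. *Gjb2* spans chr14:57098600-57104702 and *Gjb6* chr14:57123303-57133611, with 18600 bases between them. *Gja1*, which encodes connexin 43, the connexin of bone, connective tissue and glia, lies on chromosome 10 (chr10:56377330-56402513, plus strand). The 250 bases before the RefSeq start of each connexin gene are shown, because *Gjb2* and *Gjb6* were the members most alike across cells, and *Gja1* is the third connexin gene among the members. They are read 5′ to 3′ on the strand of the gene, from RefSeq on GRCm38.p6, and capitals mark the letters GGGCGG of a GC box on either strand. The windows are chr14:57104703-57104952 for *Gjb2*, chr14:57133612-57133861 for *Gjb6* and chr10:56377050-56377299 for *Gja1*.
Gjb2: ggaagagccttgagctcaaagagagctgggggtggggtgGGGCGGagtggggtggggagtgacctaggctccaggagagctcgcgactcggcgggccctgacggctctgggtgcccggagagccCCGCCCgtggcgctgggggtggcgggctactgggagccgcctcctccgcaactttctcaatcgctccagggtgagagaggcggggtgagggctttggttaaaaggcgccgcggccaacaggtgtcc
Gjb6: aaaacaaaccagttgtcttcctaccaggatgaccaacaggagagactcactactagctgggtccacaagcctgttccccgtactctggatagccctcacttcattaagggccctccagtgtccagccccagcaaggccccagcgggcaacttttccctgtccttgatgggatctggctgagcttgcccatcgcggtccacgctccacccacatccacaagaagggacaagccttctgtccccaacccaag
Gja1: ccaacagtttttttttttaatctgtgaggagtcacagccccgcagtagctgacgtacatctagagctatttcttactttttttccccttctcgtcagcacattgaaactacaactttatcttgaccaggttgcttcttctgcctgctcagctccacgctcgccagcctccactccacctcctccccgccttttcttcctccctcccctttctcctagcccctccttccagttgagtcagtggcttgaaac
The *Gjb2* window held 2 GC boxes, 18 CpG dinucleotides and 69.2% G and C. The *Gjb6* window held 0 GC boxes, 5 CpG and 56.8% G and C, and the *Gja1* window 0 GC boxes, 6 CpG and 50.0% G and C. The letters TATAAA of a TATA box were in none of the 3 windows on either strand, nor was the pentamer of a CCAAT box. Over the 32851 windows of the same length in the table, 32.7% held a GC box, 12.4% a TATA box and 33.8% a CCAAT box, without overlap between these motifs in the windows shown, and the medians were 52.4% G and C and 6 CpG.  RefSeq windows were found for 6 of the 8 genes.

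Per kb of annotated exon, *Gjb2* had the highest level of the 8 genes, at 56.8 ± 25.3 CPM per kb (SD, n = 6 plates of both genotypes), and was above *Gjb6* in 6 of 6 plates. *Gjb6* followed at 30.1 ± 14.7, *Slc12a2* at 19.6 ± 8.74, *Atp1b2* at 14.9 ± 4.33, *Gja1* at 10.6 ± 10.5 and *Kcnj10* at 6.74 ± 3.55 CPM per kb. The lowest levels were those of *Slc26a4* (2.59 ± 3.52) and *Slc12a7* (1.93 ± 1.38 CPM per kb). The ranges of neighbours in this order overlapped throughout. *Slc26a4* was above *Slc12a7* in 3 of 6 plates and *Gja1* above *Kcnj10* in 3 of 6, so that neither of these pairs had a stable order. The order also depended on the annotated exon length, which was 2.41 kb for *Gjb2*, 10.3 kb for *Gja1* and 10.9 kb for *Slc12a2*. Without division by length, *Slc12a2* had the highest mean (214 CPM), followed by *Gjb2* (137), *Gja1* (108) and *Gjb6* (80.5).

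The comparison of genotypes asked whether ERBB2 activation changed these genes. None of the 8 was called (edgeR's quasi-likelihood test on the plate sums, with an adjusted p under 0.05 over all 21416 genes tested and more than a doubling or halving), against 0.00467% of all genes tested, and DESeq2 called 0 of the 8 and 1.1% of all genes. *Gja1* had an unadjusted p under 0.05, which 5.16% of all genes had. Of the 8 log2 fold changes (CA-ERBB2 over Control), 4 were below 0, against 50.8% of all genes, and their median was 0.16. None of the 8 had plate levels that did not overlap between the genotypes, which 9.09% of all genes had. In sums over a plate, fewer cells with a transcript and less of it per cell cannot be told apart. Nothing in the labels ties a plate to single animals, so these tests measure the spread between plates.

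**Figure D1:**
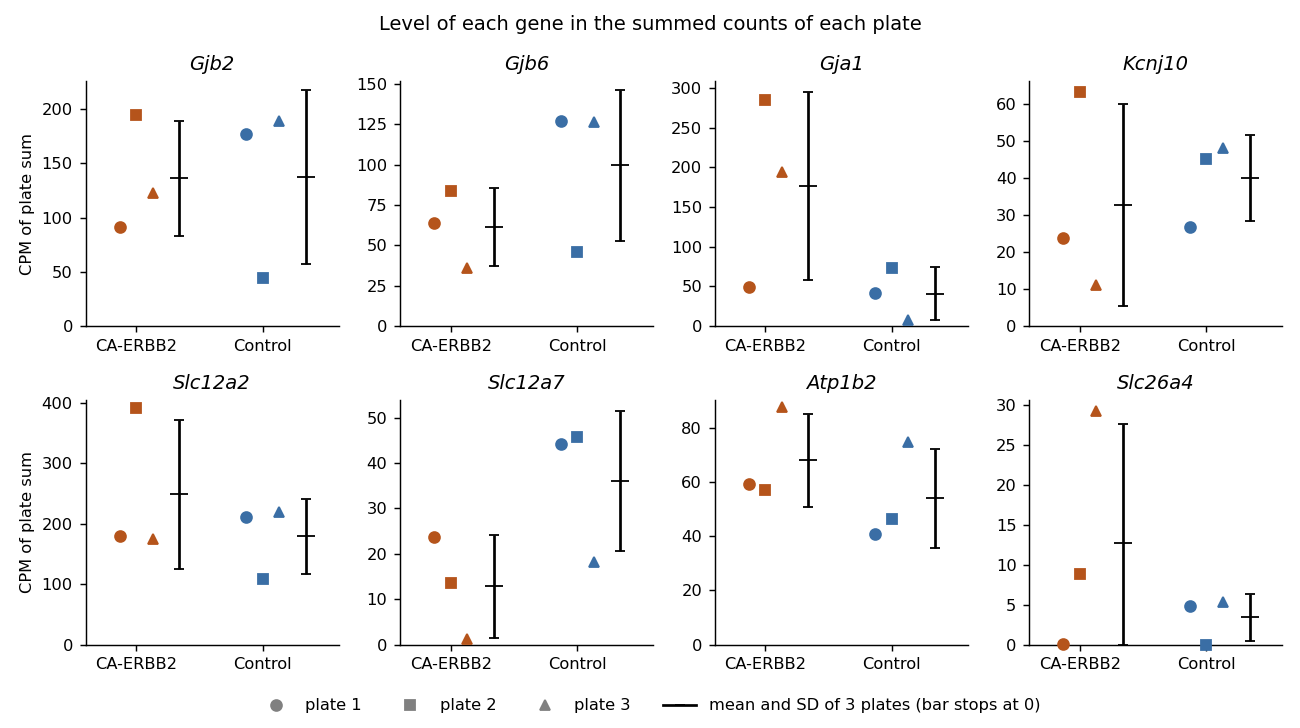
Level of each gene (CPM of the summed counts, linear axis from 0, scaled separately for each gene) on the 3 CA-ERBB2 and 3 Control plates, with the mean and SD of 3 plates beside the points. The 2 highest *Gja1* points are CA-ERBB2 plates 2 and 3, at 284 and 194 CPM, while the genotypes overlap for every gene.

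*Gjb2* was at 91.2, 195 and 123 CPM on CA-ERBB2 plates 1, 2 and 3 and at 178, 44.6 and 189 CPM on Control plates 1, 2 and 3. Control plates held both the lowest and 1 of the highest values, and the genotypes had nearly equal means of 136 ± 53.0 and 137 ± 80.3 CPM (SD, n = 3 plates). The log2 fold change of *Gjb2* was -0.01 (SE 0.61, edgeR adjusted p = 0.999). *Gjb6* was at 64.1, 83.9 and 36.0 CPM on the CA-ERBB2 plates and at 127, 45.7 and 126 CPM on the Control plates. The 2 highest *Gjb6* values were thus Control, but Control plate 2 lay within the CA-ERBB2 range, and the log2 fold change was -0.70 (SE 0.58, edgeR adjusted p = 0.930). It stayed below 0 in all 13 alternative analyses, between -1.05 and -0.19. Single cells weighed heavily in these sums, since the highest cell held 85.2% of the *Gjb6* counts of CA-ERBB2 plate 3.

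*Gja1* was at 49.5, 284 and 194 CPM on the CA-ERBB2 plates and at 42.2, 73.4 and 7.38 CPM on the Control plates. CA-ERBB2 plates 2 and 3 were above every Control plate, whereas CA-ERBB2 plate 1 was below Control plate 2. The means were 176 ± 118 and 41.0 ± 33.0 CPM (SD, n = 3 plates), with an SD larger in CA-ERBB2 cells. The log2 fold change was 2.10 (SE 0.85), with p = 0.0325 and adjusted p = 0.911 in edgeR's quasi-likelihood test. Over the 13 alternatives its log2 fold change lay between 0.91 and 2.82, with an unadjusted p from 0.00357 to 0.443 and a lowest adjusted p of 0.199. The value of 0.91 was obtained with every cell weighted equally. With the plate number as a block it was 2.23 (edgeR unadjusted p = 0.0527). *Gja1* counts were also concentrated, and the highest cell held 24.3% of them on CA-ERBB2 plate 2 and 69.9% on Control plate 3.

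*Kcnj10* encodes the inward rectifier Kir4.1, found in supporting cells, glia and the intermediate cells of the stria. It was at 23.7, 63.4 and 11.2 CPM on the CA-ERBB2 plates and at 26.8, 45.3 and 48.2 CPM on the Control plates. CA-ERBB2 plates held both the highest and the lowest value, and the log2 fold change was -0.29 (SE 0.71, edgeR adjusted p = 0.979). Leaving out CA-ERBB2 plate 3 gave 0.14 and leaving out CA-ERBB2 plate 2 gave -1.21, so single plates set its sign.

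*Slc12a2* encodes NKCC1, which brings sodium, potassium and chloride into cells. It was at 179, 391 and 175 CPM on the CA-ERBB2 plates and at 211, 108 and 219 CPM on the Control plates. Apart from CA-ERBB2 plate 2, all CA-ERBB2 values lay within the Control range, and the log2 fold change was 0.47 (SE 0.53, edgeR adjusted p = 0.952). Without that plate it was -0.01. *Slc12a7* encodes KCC4, which exports potassium and chloride and is placed in Deiters cells near the base of the hair cells. It was at 23.8, 13.5 and 1.19 CPM on the CA-ERBB2 plates and at 44.2, 45.7 and 18.2 CPM on the Control plates. All but the lowest Control plate were above every CA-ERBB2 plate, and the log2 fold change was -1.49 (SE 0.95, edgeR p = 0.148, adjusted p = 0.918). It was below 0 in all 13 alternatives, from -2.30 to -0.41. An unadjusted p under 0.05 was found in 1 of them, with the plate number as a block (-2.15).

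*Atp1b2* encodes the beta-2 subunit of the sodium pump. It was at 59.2, 57.1 and 87.9 CPM on the CA-ERBB2 plates and at 40.9, 46.3 and 75.0 CPM on the Control plates. The genotypes overlapped, and the log2 fold change was 0.33 (SE 0.52, edgeR adjusted p = 0.970). *Atp1b2* varied least of the 8 genes between plates in proportion to its level.

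*Slc26a4* encodes pendrin, the chloride and bicarbonate exchanger of the outer sulcus and spindle cells. It was detected in 15 of the 354 cells. Its counts were 6, 965 and 2641 on the CA-ERBB2 plates and 1153, 0 and 648 on the Control plates, and a single cell held all of them, or nearly all, on CA-ERBB2 plates 1 and 3 and Control plate 3. For Control plate 2, a count of 0 allows up to 0.0277 CPM for counting error alone, over the plate total without the TMM factor. The same 0 allows up to 5.08% of its cells with a count, although 23 of these 59 cells had under 100000 counts. A single cell gave 0.0240 CPM on CA-ERBB2 plate 1 and 5.36 CPM on Control plate 3. Nearly all of the 29.3 CPM of CA-ERBB2 plate 3 came from 1 cell as well. The limit on cells thus allows levels well above 0.0277 CPM. The log2 fold change of 1.90 (SE 2.05, edgeR adjusted p = 0.947) therefore rested on a handful of cells and gave no order of the genotypes at this depth.

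Detection, meaning at least 1 count of a gene in a cell, was compared between genotypes as the share of the 59 cells of each plate. *Gja1* was detected in 49.2%, 61.0% and 52.5% of cells on CA-ERBB2 plates 1, 2 and 3 and in 33.9%, 28.8% and 33.9% on Control plates 1, 2 and 3. Every CA-ERBB2 plate was above every Control plate, and the means were 54.2 ± 6.11% and 32.2 ± 2.94% (SD, n = 3 plates), a difference of 22.0 percentage points (two-sided exact permutation test of the plates, p = 0.1). This is the smallest p that 3 plates against 3 allow. Shares that did not overlap were found for 1 of the 8 genes, and for 1.44% of all genes tested.

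Low counts made up much of this. Of the 153 cells with *Gja1*, 77 (50.3%) had 1 to 9 counts, against 7.51% to 33.3% of the positive cells for the other 7 genes. With at least 10 counts required, the *Gja1* shares were 27.1%, 32.2% and 27.1% on the CA-ERBB2 plates and 23.7%, 13.6% and 5.08% on the Control plates. These still did not overlap, which was the case for 1.38% of all genes, and the difference was 14.7 points. In thinned cells the shares were 30.5%, 32.8% and 29.3% against 22.0%, 19.4% and 8.16%, a difference of 14.3 points, and 2.67% of all genes did not overlap there. Without wells A12 to D12 the *Gja1* shares again did not overlap, with 45.5%, 58.2% and 49.1% against 29.1%, 25.5% and 30.9%. The exact permutation p was 0.1 in each of these settings. With the plate number as a block, the exact permutation p for detection was 0.25, the smallest that this form of the test allows.

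For the other 7 genes the shares overlapped. *Gjb2* was detected in 93.2%, 35.6% and 28.8% of cells on the CA-ERBB2 plates and in 64.4%, 27.1% and 44.1% on the Control plates. *Gjb6* was detected in 49.2%, 16.9% and 13.6% against 49.2%, 16.9% and 15.3%, and *Kcnj10* in 39.0%, 13.6% and 11.9% against 33.9%, 15.3% and 18.6%. In all 3 genes the plates numbered 1 were the highest of their genotype. The differences of the 7 genes lay between -4.52 points (*Slc12a7*) and 7.34 points (*Gjb2*), with exact permutation p-values of 0.6 to 1 over 3 plates against 3.

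**Figure D2:**
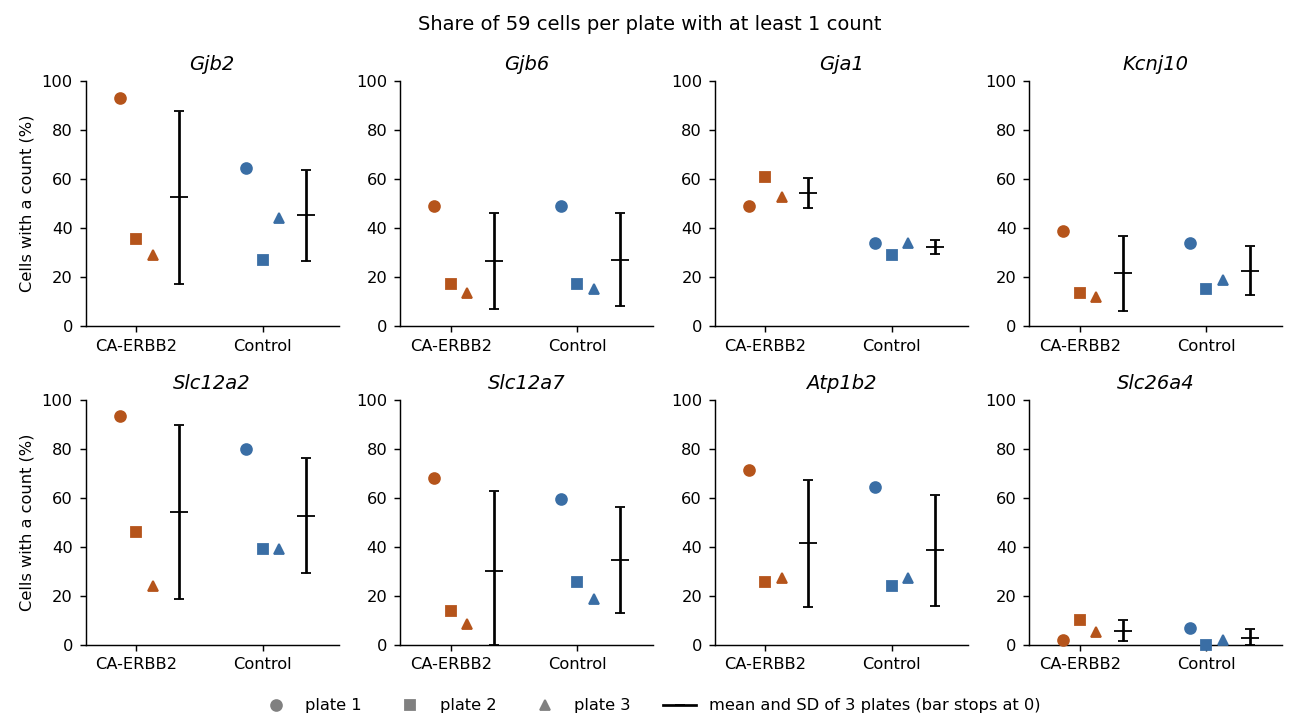
Share of the 59 cells of each plate with at least 1 count of each gene (percent, axis from 0 to 100), with the mean and SD of 3 plates beside the points. *Gja1* is the gene whose CA-ERBB2 plates (49.2% to 61.0%) all lie above its Control plates (28.8% to 33.9%), and plate 1 is the highest of its genotype for most of the other genes.

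The number of members found in a cell followed the number of genes detected in it. Of the 354 cells, 68 held 0 of the 8 genes, 68 held 1 and 3 held all 8. Cells of plates 1 held 4.64 (CA-ERBB2) and 3.92 (Control) of the 8 genes on average, and cells of the other 4 plates 1.71 to 2.22. Cells of wells A12 to D12 held 6.33 (CA-ERBB2) and 6.50 (Control), against 2.61 and 2.27 in the other wells. When the cells were split into 4 groups of about equal size by genes detected, from the lowest to the highest group the share with *Slc12a2* went from 4.49% to 95.5% and the share with *Slc12a7* from 1.12% to 82.0%. *Gja1* depended on it least among the 7 genes other than *Slc26a4*, with 24.7% in the lowest and 55.1% in the highest group.

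*Gjb2* and *Gjb6* were found together in 74 cells, *Gjb2* without *Gjb6* in 99, *Gjb6* without *Gjb2* in 21 and neither in 160. *Gjb6* was thus mostly found in cells with *Gjb2*. It was detected in 42.8% of the 173 cells with *Gjb2* and in 11.6% of the 181 others, a difference of 31.2 points, which was 25.3 points without wells A12 to D12 and 8.48 points once cells were compared within these 4 groups. By plate the difference was -0.91, 32.8 and 14.0 points on CA-ERBB2 plates 1, 2 and 3 and 32.0, 19.6 and 20.9 points on Control plates 1, 2 and 3. It was above 0 on 5 of 6 plates, the exception being CA-ERBB2 plate 1, where only 4 cells lacked *Gjb2*. Cells with both made up 22.0 ± 20.8% of CA-ERBB2 and 19.8 ± 16.7% of Control plates (SD, n = 3), a difference of 2.26 points (two-sided exact permutation test, p = 0.8), and its sign changed with the setting. Differences by *Gjb2* detection were not particular to *Gjb6*. They were 48.2 points for *Slc12a2*, 45.3 for *Atp1b2*, 42.2 for *Slc12a7*, 30.4 for *Kcnj10*, 9.30 for *Gja1* and 4.15 for *Slc26a4*. Within the 4 groups of genes detected they were 12.7, 9.96, 7.36, 12.5, -4.44 and 1.96 points in the same order.

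To compare the genes at equal total counts, the thinned counts of the 319 cells were put on the log2(count + 1) scale, and the plate means and the number of genes detected were taken out. Of 11978 other genes detected in at least 10% of these cells, *Gjb2* was 2nd in likeness to *Gjb6*, and *Gjb6* was 4th in likeness to *Gjb2* (Pearson r = 0.29 across cells that share plates and libraries). Within single plates this r lay between -0.02 and 0.57 and was above 0 on 5 of 6. The next highest pair among the 7 members that could be ranked, *Kcnj10* and *Atp1b2*, had an r of 0.15. *Gja1* had an r from -0.17 to 0.07 with the other 6, with *Kcnj10* the lowest at -0.17 and *Slc12a7* next at -0.14. *Slc26a4* was detected in too few thinned cells, 10 of 319, to be ranked.

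**Figure D3:**
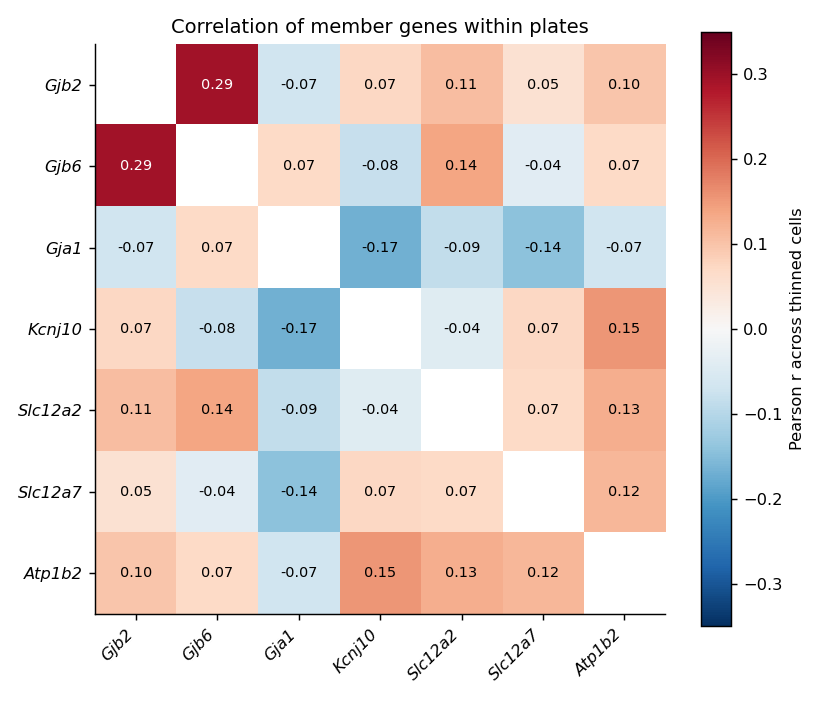
Pearson r between the member genes across 319 thinned cells (log2(count + 1), plate means and genes detected taken out), with colour from blue (below 0) to red (above 0). *Gjb2* and *Gjb6* form the strongest pair at 0.29, and the row of *Gja1* is below 0 for 5 of the other 6 genes.

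The genes most like each member differed between members. *Gjb2* was closest to *Car14*, a carbonic anhydrase gene (r = 0.32), followed by *Mpzl2*, an adhesion molecule and deafness gene, *Spint2*, a protease inhibitor gene, *Gjb6* and *Gm48840*, which overlaps *Mpzl2* on the opposite strand, so that its reads may not be separate from those of *Mpzl2*. *Gjb6* was closest to *Ssh2* (0.30), a phosphatase of the actin system, then to *Gjb2*, *Mterf4*, *Khk* and *Nampt*. *Gja1* was closest to the collagen gene *Col13a1* (0.40), to *Wls*, which is needed for Wnt secretion, to the type I collagen gene *Col1a1* (0.36), to *Anxa1* and to *Ank*, a transporter that acts in mineralisation. The 5 genes most like *Kcnj10* reached a higher r than those of the other members, from 0.55 for the cell cycle inhibitor gene *Cdkn1b* to 0.52 for *Tmprss5*, with *Mphosph9*, *Efhd1* and *Kif21a* between, and each of these was above 0 on 6 of 6 plates.

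*Slc12a2* was closest to *Pcsk6*, a proprotein convertase gene (0.38), and then to *Plce1*, *Itpr1*, *Iqgap1* and *Coch*, the cochlin gene. *Slc12a7* was closest to *Arhgef19* (0.39), followed by the potassium channel gene *Kcnh6*, the tight junction and deafness gene *Cldn14* (0.37), *Sall3* and *Llgl2*. *Atp1b2* was closest to *Gm16136* (0.38), which overlaps *Grhl2* on the opposite strand and may share its reads, then to *Rora*, the sodium, calcium and potassium exchanger gene *Slc24a3*, *Ssx2ip* and *Tmprss3*, a deafness gene. Where neither plate means nor genes detected were taken out, 4 of the 5 genes remained among the top 5 for *Gja1* and *Kcnj10*, 3 for *Gjb2*, *Gjb6* and *Atp1b2*, 1 for *Slc12a2* and 0 for *Slc12a7*. The genes named for *Slc12a2* and *Slc12a7* therefore depended on that step.

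*Kcnj10* went with several marker lists, among them that of pillar and Deiters cells, the supporting cells around the outer hair cells. The median r of *Kcnj10* with the 9 of 10 such markers that could be ranked was 0.31, and all 9 were above 0, against a median of 0.03 over all genes ranked. *Emid1* (0.47), *Cryab* (0.43) and the Notch target *Hes5* (0.39) were highest. The median was also above 0 for *Atp1b2* (0.20), *Slc12a7* (0.12) and *Gjb2* (0.12), and below 0 for *Slc12a2* (-0.04), *Gjb6* (-0.07) and *Gja1* (-0.14). All 9 markers were below 0 with *Gja1*, and *S100a1* was the lowest at -0.29. The median of *Kcnj10* was higher with the 6 general supporting cell markers (0.41, 5 of 6 above 0, *Sox10* highest at 0.50). *Kcnj10* had a high r with Schwann cell and glia markers too (4 of 4 ranked above 0, median 0.34, *Erbb3* highest at 0.46). Its likeness was thus not particular to pillar and Deiters markers, and the part of Schwann cells and glia in its values was not tested.

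In thinned cells with 5 to 10 of the 10 pillar and Deiters markers, *Kcnj10* was detected in 71.8% of 39 cells on plates 1 and in 46.2% of 39 cells on plates 2 and 3. In cells with 2 to 4 markers it was detected in 10.6% of 66 and in 7.46% of 67 cells. Of the cells with 0 or 1 marker, 0% of 13 and 1.05% of 95 held it, where 0 of 13 bounds little. *Gja1* showed no such rise, with 15.4%, 31.8% and 20.5% on plates 1 and 17.9%, 28.4% and 28.2% on plates 2 and 3 in the same order. *Gjb2* rose from 38.5% through 60.6% to 94.9% on plates 1 and from 17.9% through 31.3% to 74.4% on plates 2 and 3. Cells with more markers also had more genes detected after thinning (medians of 772, 5456 and 8328 over all plates), and the part of this in these shares was not tested.

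**Figure D4:**
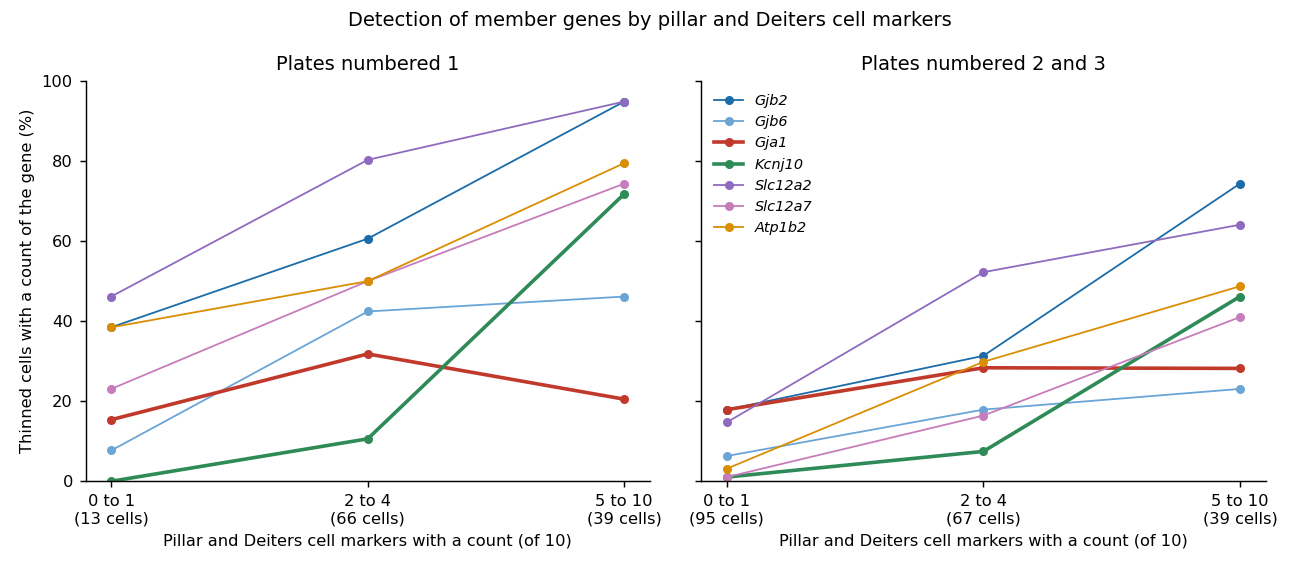
Share of thinned cells with a count of each gene (percent) by how many of 10 pillar and Deiters cell markers had a count, on plates numbered 1 and on plates numbered 2 and 3, with *Slc26a4* left out. *Kcnj10* rises from at most 1.05% to 46.2% and 71.8%, and *Gja1* stays between 15.4% and 31.8%.

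*Gja1* went instead with most of the 6 markers listed for mesenchyme and fibrocytes. Its median r with these 6 markers was 0.16, with 5 of 6 above 0, the exception being *Otos* at -0.07. *Otos* was the highest of the 6 with *Gjb2* (0.21) and *Slc12a2* (0.15). *Kcnj10* had 0 of 6 above 0 and a median of -0.23. *Gjb6* and *Slc12a2* had 5 of 6 above 0, with medians of 0.07 and 0.06. Thinned cells with *Gja1* held 3.90 of the 6 markers on average and cells without it 2.24, with medians of 6170 and 2471 genes detected. The summed level of the 6 markers was 3598 to 4561 CPM on the CA-ERBB2 plates and 3650 to 5220 CPM on the Control plates, all 6 were above 0, and the ranges overlapped.

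*Gja1* was also frequent in the CA-ERBB2 cells with *Spp1*, *Timp1*, *Mmp9* and *Dmp1*, genes of secreted proteins that act on the matrix. There were 36 such cells, with each of the 4 genes at 100 CPM or more, 3, 14 and 19 on CA-ERBB2 plates 1, 2 and 3 and 0 among the Control cells. At least 10 *Gja1* counts were present in 66.7% of these 36 cells, in 19.1% of the 141 other CA-ERBB2 cells and in 14.1% of the 177 Control cells. By plate the shares were 100%, 71.4% and 57.9% against 23.2%, 20.0% and 12.5% in the other cells of the same plate, and the cells with the 4 genes were higher on 3 of 3 plates. By this share *Gjb2* was higher in them on 3 of 3 plates as well, by less (100%, 42.9% and 36.8% against 85.7%, 31.1% and 17.5%), *Slc12a2* and *Slc12a7* on 2, *Gjb6* and *Atp1b2* on 1 and *Kcnj10* and *Slc26a4* on 0. The mean CPM of *Gjb2*, in contrast, was lower in them on each plate, at 47.8, 28.8 and 51.8 against 141, 305 and 86.7 in the other cells. The 36 cells with the 4 genes, 3 of them from plate 1, had a median of 3198 genes detected. The median was 3853 in all 141 other CA-ERBB2 cells and 1878 in those of plates 2 and 3. The direction of this difference thus depended on the plates included, and its part in the shares was not tested. These 36 cells held 64.7% of all *Gja1* counts of CA-ERBB2 cells, but 2.59% of those of *Gjb6* and 8.15% of those of *Gjb2*. The mean CPM of *Gja1* on plate 3 was nevertheless lower in them (91.7) than in the other cells (123), while the median was 7.10 against 0. The 4 genes had an r with *Gja1* of 0.29 to 0.36, and these cells were chosen by measured levels, so the shares are given as a description.

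**Figure D5:**
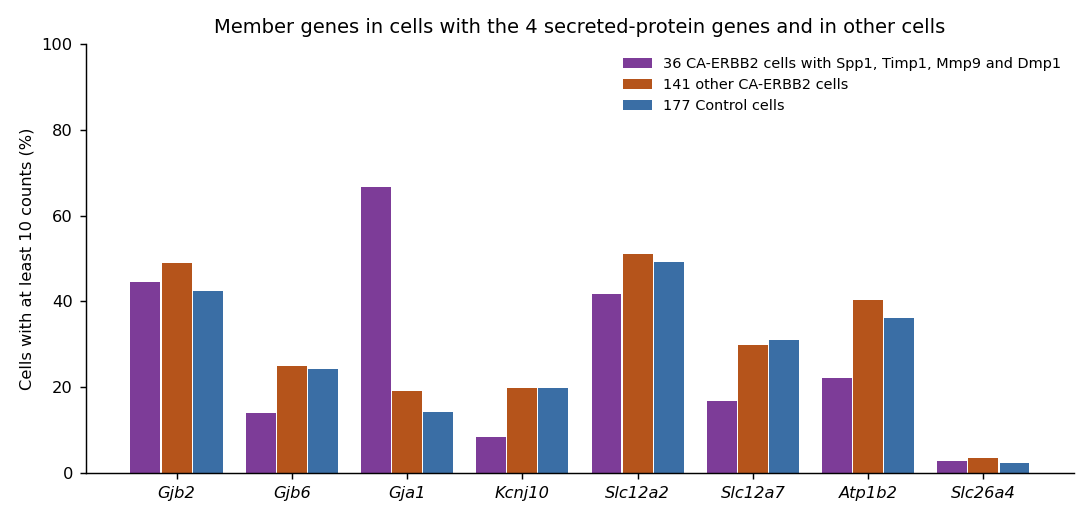
Share of cells with at least 10 counts of each gene (percent, bars from 0) among 36 CA-ERBB2 cells with *Spp1*, *Timp1*, *Mmp9* and *Dmp1* at 100 CPM or more each, 141 other CA-ERBB2 cells and 177 Control cells. *Gja1* reaches 66.7% in the first, against 19.1% and 14.1%. The shares are pooled over plates, and 56 of the 141 other CA-ERBB2 cells but 3 of the 36 come from the gene-rich plate 1.

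Among 64 further genes for connexins, pannexins, potassium channels, cotransporters, pumps, anion and pH regulators, water channels and glutamate uptake and 2 transcription factors, 52 had counts enough to be tested and none was called by edgeR, while DESeq2 called 3 (*Kcne1*, *Aqp4* and *Aqp5*), against 235 of all 21416 genes. In this list 5 genes had an unadjusted p under 0.05, 1 higher and 4 lower in CA-ERBB2 cells, or 9.62% of the 52 against 5.16% of all genes. The median log2 fold change was -0.14, with 29 of the 52 below 0, and 3 of the 52 (the same 3 genes, or 5.77%) had plates that did not overlap, against 9.09% of all genes. *Kcne1*, a subunit of the channel through which strial marginal cells secrete potassium, was at 38.6, 16.1 and 68.9 CPM on the CA-ERBB2 plates and at 0.0589, 1.80 and 0.537 CPM on the Control plates. Every CA-ERBB2 plate was above every Control plate, and the log2 fold change was 5.69 (SE 1.27, edgeR p = 0.00108, adjusted p = 0.774). DESeq2 gave it an adjusted p of 6.24e-05. It was detected in 30 of the 354 cells. The partner channel gene *Kcnq1*, also a marker of marginal cells, was at 6.32 to 9.07 CPM on the CA-ERBB2 plates and 1.79 to 8.32 CPM on the Control plates. The third marginal cell marker, *Esrrb*, was at 3.30 to 14.6 CPM on the CA-ERBB2 plates and 0.00421 to 12.2 CPM on the Control plates, so that both other markers overlapped between the genotypes. The summed level of the 3 markers, 30.0 to 80.4 CPM against 4.83 to 14.5 CPM, includes *Kcne1* itself, and the part of such cells was not tested.

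The 4 genes with lower values were the water channel genes *Aqp4*, *Aqp5* and *Aqp11* and the anion exchanger gene *Slc4a2*. *Aqp4*, a water channel of glia and of some supporting cells, was at 4.34, 0.805 and 0 CPM on the CA-ERBB2 plates and at 9.63, 113 and 41.7 CPM on the Control plates. *Aqp5*, a water channel of the outer sulcus, was at 2.30, 5.48 and 2.06 against 8.0, 20.1 and 74.9 CPM. Their log2 fold changes were -4.99 (SE 1.69, edgeR adjusted p = 0.911) and -3.39 (SE 0.99, adjusted p = 0.864). Those of *Aqp11* and *Slc4a2* were -1.88 and -2.18 (adjusted p = 0.911 for both), and in each a single Control plate lay far above the others, *Aqp11* with 316 CPM on Control plate 3 and *Slc4a2* with 153 CPM on Control plate 2. The summed level of 5 outer sulcus markers was 767 to 1637 CPM on the CA-ERBB2 plates and 1250 to 2375 CPM on the Control plates, none was at 0, and their part in the values of the water channels was not tested.

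The genes of this list with the highest level per kb of exon were *Atp1b3* (73.6 CPM per kb, mean of 6 plates), the cytosolic carbonic anhydrase gene *Car2* (68.0), *Atp1b1* (40.1), *Kcnj13* (27.6) and *Stk39*, the kinase that activates NKCC1 (22.0). *Atp1b3* and *Atp1b1*, which encode the other beta subunits of the sodium pump, were thus above *Atp1b2* (14.9 CPM per kb). None of these 5 genes was called between genotypes, with log2 fold changes from -1.43 (*Kcnj13*) to 0.31 (*Car2*). *Kcnj13*, which encodes the channel Kir7.1, was found in 27 cells, at 0.397, 56.4 and 0.266 CPM on the CA-ERBB2 plates and 128, 17.6 and 7.94 CPM on the Control plates, which overlapped.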

How the data were processed

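The counts deposited by the authors are whole-number read counts per gene and cell, without normalization. The authors trimmed the reads with FastP, mapped them with STAR 2.7.6a to GRCm38 and counted exonic reads by strand with featureCounts (Subread 2.0.1, Gencode M25). Positions and exon lengths given here come from Gencode M21 on the same build. Each plate's 59 cells were added up, since cells are not replicates, and the sums were tested with edgeR 4.0.16 (filterByExpr, TMM, quasi-likelihood test, Benjamini-Hochberg adjustment). The test was also run on simulated data with large changes only, which does not measure its power for smaller ones. Shares of cells were compared with exact permutation tests of the 6 plates. Plate sums held 108357282 counts or more, but few cells carried most counts of a gene. Reads carried no molecular identifiers, so limits from a count of 0 (3 counts) cover counting error only. Some items are not reported here. The members and lists were chosen with earlier results of these data known. Of the further genes, those with an unadjusted p under 0.05 and the 5 highest per kb were named, and for likeness the 5 genes with the highest r for each member. Alternatives were DESeq2 1.42.0, limma 3.58.1, no low-count filter, the plate number as a block, subsets of cells, thinning, at least 10 counts and each plate left out.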

Additional observations from a re-analysis of the deposited data

How the results depend on the processing

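None of the 8 genes was called in any of the 13 alternatives. Of the further genes, 3 were called with DESeq2 (*Kcne1*, *Aqp4* and *Aqp5*) and 3 without the filter on low counts (*Kcne1* and *Aqp4* among them), against 0. Over all genes these settings called 235 of 21416 and 285 of 39201, against 1 of 21416. Same-numbered plates of the genotypes had correlations of 0.215, 0.0822 and 0.0773. Each was above the highest with another number (-0.0783, 0.0141 and -0.00913), so pairing by plate number remains possible. The main tests did not pair the plates. With the plate number as replicate block, 0 members and 0 further genes were called. The sign of 11 of 104 log2 fold changes and of 20 of 80 detection differences (CA-ERBB2 minus Control, percentage points) changed, for *Gja1* and *Slc26a4* in neither measure, and the cause was not tested. The log2 fold change of *Gjb2* was 0.045 with DESeq2, 0.11 with the replicate block and 0.44 with plates 2 and 3 only. In limma with cells weighted equally, *Slc12a2* was at -0.17 and *Atp1b2* at -0.016. With each plate left out in turn, the log2 fold change ranged from -0.44 to 0.33 for *Gjb2*, from -1.21 to 0.14 for *Kcnj10* and from -0.0099 to 0.69 for *Slc12a2*. The detection differences then ranged from -13.0 to 19.2 for *Gjb2*, -11.9 to 10.5 for *Gjb6*, -9.89 to 4.52 for *Kcnj10*, -17.8 to 16.9 for *Slc12a2*, -23.4 to 7.91 for *Slc12a7* and -12.1 to 15.8 for *Atp1b2*. After thinning, which also left out 33 Control and 2 CA-ERBB2 cells, they were -2.60 for *Gjb2*, -6.81 for *Slc12a2* and -3.10 for *Atp1b2*. The difference in cells with both *Gjb2* and *Gjb6* was -3.16 points after thinning, -1.13 with at least 10 counts and -9.60 to 11.9 without single plates. *Gjb6* detection by *Gjb2* moved from 31.2 to 8.48 points within 4 groups of genes detected, and the other 9 alternatives moved it by less than the SD between plates. With 3 plates against 3, the exact test of shares cannot give a p under 0.1, whatever the difference.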
